A study of Mus with 8 samples.

Results

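The 10 genes described here cover the synthesis, breakdown, receptors and cAMP response of prostaglandin E2 (PGE2) in mouse bone-marrow monocytes cultured in stiff hydrogels. They were chosen by Ensembl ID out of 17640 IDs in the count table: Ptgs1, Ptgs2, Ptges, Hpgd, Ptger2, Ptger3, Ptger4, Crem, Nr4a1 and Pde4b. The rule that lists them uses no expression value, but the choice was made with earlier results of these data known. RNA was sequenced from 8 libraries in 4 groups of 2: Jak2 V617F Vav-iCre cells in elastic gel, the same cells in viscous gel, control Vav-iCre cells in elastic gel, and control cells in viscous gel. The mice were on the C57BL/6 strain, and both genotypes carried Vav-iCre, a Cre recombinase under the Vav promoter, which is active in blood-forming cells. The mutant mice carried Jak2 V617F, an activating change in the Jak2 kinase and a known driver of myeloproliferative neoplasm, as an endogenous knock-in; the sources used here give no ages. All cultures were harvested on day 3 after growth in medium with 100 ng/mL GM-CSF, 200 ng/mL IL4 and, in both genotypes and gels, PGE2 at 100 ng/mL. Because every culture, controls included, received PGE2, no library shows these genes without added PGE2.

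PGE2 is a lipid mediator made from arachidonic acid. The cyclooxygenases COX-1 (Ptgs1, usually constitutive) and COX-2 (Ptgs2, inducible in stimulated monocytes and macrophages) make the precursor prostaglandin H2, and the microsomal synthase encoded by Ptges turns it into PGE2. The dehydrogenase encoded by Hpgd inactivates PGE2. Of its receptors, those encoded by Ptger2 and Ptger4 couple to the stimulatory G protein and raise cAMP, while that encoded by Ptger3 mainly couples to the inhibitory G protein. Cyclic AMP activates protein kinase A and the transcription factor CREB, which is known to induce Crem and Nr4a1. Pde4b encodes a phosphodiesterase that degrades cAMP.

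Each elastic library shares the number at the end of its title with 1 viscous library of its genotype. These numbers are written J1 and J2 for Jak2 V617F and W1 and W2 for control, where J1 and W1 stand for the lower title number of their genotype. Nothing in the labels ties a number to an animal, culture or day. A p-value here thus sets a difference only against the spread between libraries of a group, or between sums of counts per number. That spread can be technical. Totals ranged from 30632355 to 38408851 counts per library. Both W1 libraries stood apart: on the first principal component of log2 CPM (41.5% of the variance) they scored 69.4 in elastic and 78.2 in viscous gel, while the other 6 lay between −37.1 and −10.9. Levels are given as CPM, counts divided by the library total (corrected by edgeR's TMM scaling) times 1e+06, and are compared within a gene only, since no transcript lengths were used. In such bulk libraries fewer cells of a type and less RNA per cell cannot be told apart. The deposited table carries no gene symbols beyond what the choice of these IDs gives. The monocyte label, other cell types and further genes of the pathway were therefore not analysed here.

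Ptgs2 (ENSMUSG00000032487) was higher in elastic than in viscous gel within every title number, but its level depended even more on which control number was read. It had 4616 and 4144 CPM in Jak2 V617F elastic libraries (J1 and J2) and 2221 and 1321 CPM in the Jak2 V617F viscous libraries of the same numbers. In control W2 it had 5030 CPM in elastic and 1750 CPM in viscous gel, and in control W1 only 346.0 and 190.3 CPM. The elastic level was thus 2.08-fold (J1), 3.14-fold (J2), 1.82-fold (W1) and 2.87-fold (W2) the viscous level. Elastic and viscous libraries overlapped only through W1: in the other 6 libraries, elastic values of 4144 to 5030 CPM lay above viscous values of 1321 to 2221 CPM. In the elastic libraries other than W1, Ptgs2 alone held 0.414% to 0.489% of all counts, against 0.129% to 0.228% in the viscous ones. By the RefSeq gene table Ptgs2 lies at chr1:150100031-150108234 on GRCm38.

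Over both genotypes the edgeR estimate for Ptgs2 was a log2 fold change of 1.39 for elastic minus viscous (SE 0.92, 95% interval −0.83 to 3.60, edgeR p 0.179, adjusted p = 0.914), singled out here after its values were seen. The estimate did not exceed the spread between libraries, to which W1 contributed. Without both W1 libraries it was 1.42, a similar size. That fit left control cells without replicates, so its spread came from the Jak2 V617F libraries only. DESeq2 on all 8 libraries did not call Ptgs2 without title number in the model (adjusted p = 0.854). With title number as a block, an alternative chosen after seeing the data, DESeq2 called it (adjusted p = 5.81e-12), as it did 2.67% of all IDs. Leaving out control elastic W2, so that W1 alone stood for control cells in elastic gel, brought the edgeR estimate to −0.090.

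**Figure D1:**
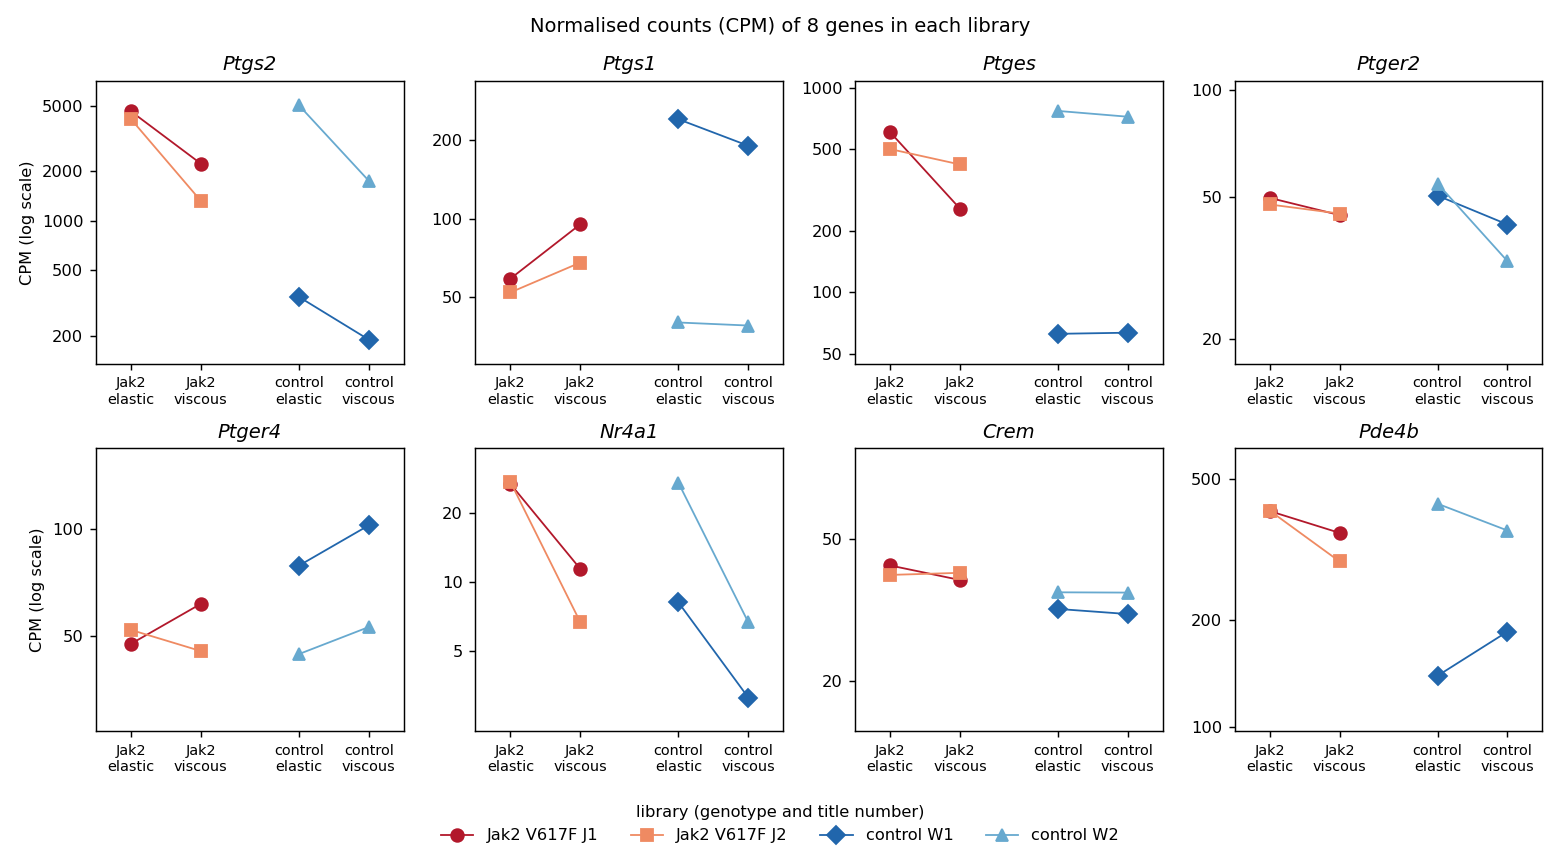
CPM (log scale) of 8 of the genes in each of the 8 libraries, with Jak2 V617F left of control and elastic left of viscous gel in each genotype; a line joins the libraries that share a title number. Ptgs2 and Nr4a1 slope down to viscous gel in all 4 numbers, and control W1 (diamonds) sits apart for Ptgs2, Ptgs1 and Ptges.

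Ptges (ENSMUSG00000050737), the synthase that follows COX-2, showed the same break at W1 and no common matrix difference. It had 606.3 and 500.9 CPM in Jak2 V617F elastic libraries (J1 and J2) and 256.0 and 421.0 CPM in Jak2 V617F viscous libraries. Control W2 had 769.5 CPM in elastic and 720.8 CPM in viscous gel, whereas control W1 had 62.6 and 63.4 CPM. The ratio of elastic to viscous was 2.37 in J1 and between 0.987 and 1.19 in the other 3 numbers. Ptges did not pass the edgeR test for matrix over both genotypes (log2 fold change 0.40, 95% interval −1.78 to 2.57, adjusted p = 0.983). The RefSeq gene table lists a lncRNA and a pseudogene whose spans overlap that of Ptges. Exons were not compared, and the sources used here do not say whether counting used strand. Whether reads from these genes entered the Ptges counts could therefore not be told.

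Ptgs1 (ENSMUSG00000047250), the COX-1 gene, ran the other way in W1. The Jak2 V617F libraries had 59.0 (J1) and 52.2 CPM (J2) in elastic and 95.3 and 68.0 CPM in viscous gel. Control W1 had 240.3 CPM in elastic and 190.2 CPM in viscous gel, above all of these, and control W2 had 40.1 and 39.0 CPM, below all of them. Between the gels Ptgs1 was lower in elastic in both Jak2 V617F numbers (0.619-fold and 0.769-fold the viscous level) and slightly higher in both control numbers (1.26-fold and 1.03-fold). The edgeR difference between the 2 matrix effects was −0.84 (95% interval −3.97 to 2.28, adjusted p = 1.00). This lies well within the spread between libraries, which holds the gap between W1 and W2. With title number added to the model as a block, Ptgs1 had an unadjusted edgeR p under 0.05 for this difference, as did 3.59% of all IDs. It did not pass after adjustment.

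The balance of the cyclooxygenase transcripts therefore differed more between the control numbers than between gels. The Jak2 V617F libraries had 78.3 and 79.4 Ptgs2 counts per Ptgs1 count in elastic (J1 and J2) and 23.3 and 19.4 in viscous gel. In control W1 there were 1.44 in elastic and 1.00 in viscous gel. In control W2 there were 125.6 in elastic and 44.9 in viscous gel. In all 4 numbers this ratio was higher in elastic gel; such ratios are compared between libraries only, because the genes differ in length.

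The gap between control W1 and W2 was rare among all IDs for the synthesis genes and common for others. The Jak2 V617F numbers differed in Ptgs2 by 1.11-fold in elastic and 1.68-fold in viscous gel. In control cells Ptgs2 in W1 was 14.5-fold lower in elastic and 9.20-fold lower in viscous gel, on log2 CPM with a prior count of 2. Of 14785 IDs, 0.555% had a gap in 1 direction in both gels whose smaller side was at least as large as that of Ptgs2 (3.20 log2 units). The share was 0.365% for Ptges (12.3-fold and 11.4-fold lower in W1) and 1.64% for Ptgs1 (5.99-fold and 4.87-fold higher). By contrast 11.6% of IDs had a gap as large as Ptger4, 9.60% as large as Pde4b and 47.5% as large as Crem. By this measure Nr4a1 lay at 8.04%. These are differences between single libraries and were not tested; what sets W1 apart was not tested either.

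**Figure D2:**
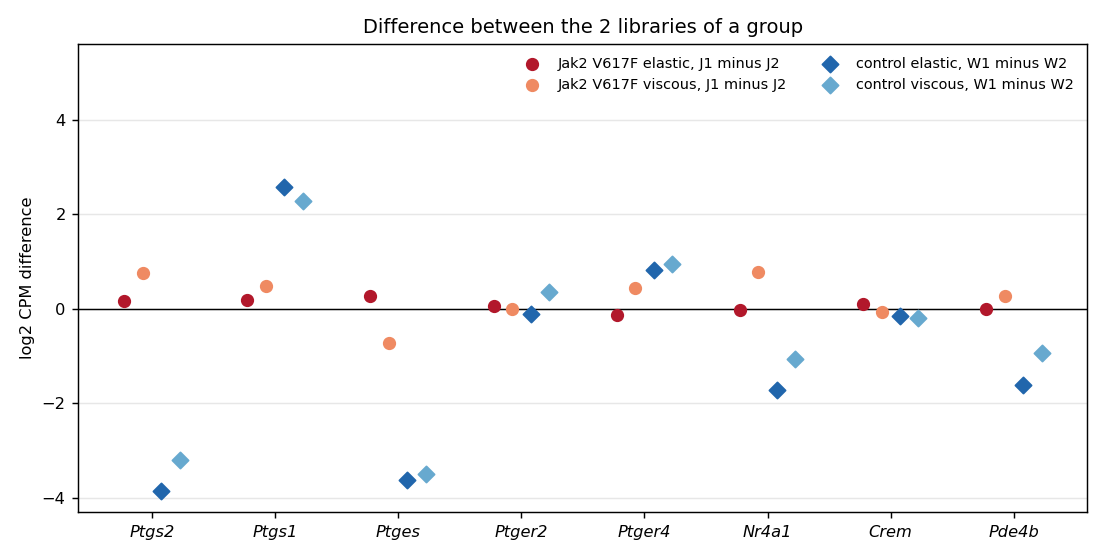
Difference in log2 CPM between the 2 libraries of each group for 8 genes, as J1 minus J2 in Jak2 V617F (circles) and W1 minus W2 in control (diamonds). Ptgs2 and Ptges are far below 0 and Ptgs1 far above 0 in control in both gels, while the Jak2 V617F points lie within 1 log2 unit of 0.

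Hpgd (ENSMUSG00000031613), the PGE2-inactivating dehydrogenase, was at the limit of detection. Its counts were 1 and 2 in Jak2 V617F elastic, 4 and 0 in Jak2 V617F viscous, 0 and 2 in control elastic, and 0 and 4 in control viscous libraries (J1, J2 and W1, W2). The 13 counts in all fell below the low-count filter, so Hpgd was the only 1 of the 10 genes that was not tested. A count of 0 allows up to 3 counts, or 0.0817 to 0.0969 CPM in the 3 libraries at 0, counting error only.

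Among the receptors, Ptger2 (ENSMUSG00000037759), the EP2 gene, was the only gene of the 10 whose 4 elastic libraries all lay above its 4 viscous libraries. It had 49.8 and 47.7 CPM in Jak2 V617F elastic (J1 and J2) and 44.5 and 45.0 CPM in Jak2 V617F viscous libraries. Control W1 had 50.5 CPM in elastic and 41.9 CPM in viscous gel, and control W2 had 54.7 and 33.0 CPM. Of the 9 genes tested, 1 thus did not overlap between the gels, while 3.73% of all 14785 IDs did not. Unlike the synthesis genes, Ptger2 did not set W1 apart, and its full range over 8 libraries was 33.0 to 54.7 CPM.

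The matrix difference of Ptger2 was small, a log2 fold change of 0.31 (SE 0.099, 95% interval 0.068 to 0.54), or 1.24-fold higher in elastic gel. Its edgeR p was 0.0192 and its adjusted p 0.713, so it did not pass the test over all IDs. In Jak2 V617F cells it was 0.12 (95% interval −0.21 to 0.46), and in control cells 0.49 (SE 0.14, edgeR p 0.0114, adjusted p = 0.985). The difference between these effects was −0.37 (95% interval −0.84 to 0.11, edgeR p 0.111), so a different response of the genotypes was not shown. Ptger2 lies at chr14:44988111-45003820 on GRCm38.

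Ptger4 (ENSMUSG00000039942), the EP4 gene and the other cAMP-raising receptor, was again set apart in W1. It had 47.4 and 51.9 CPM in Jak2 V617F elastic and 61.5 and 45.2 CPM in Jak2 V617F viscous libraries (J1 and J2). Control W1 had 78.7 CPM in elastic and 102.2 CPM in viscous gel, above the 44.3 and 52.9 CPM of control W2 and above every Jak2 V617F library. Elastic was below viscous in 3 of 4 numbers (0.770 to 0.839 of the viscous level) and above it in J2 (1.15). The estimate over both genotypes was −0.22 (95% interval −0.86 to 0.43, adjusted p = 0.958).

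Ptger3 (ENSMUSG00000040016), the EP3 gene, was rare, with 91 counts over all libraries. There were 5 and 17 counts in Jak2 V617F elastic, 25 and 11 in Jak2 V617F viscous, 10 and 12 in control elastic, and 0 and 11 in control viscous libraries. Group sums of 22, 36, 22 and 11 had exact Poisson 95% intervals of 13.8 to 33.3, 25.2 to 49.8, 13.8 to 33.3 and 5.49 to 19.7, counting error only. The spread within groups, such as 5 against 17 counts, was as wide as that between them, and edgeR did not call Ptger3 for matrix (adjusted p = 0.987) or genotype (adjusted p = 0.821).

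Of the cAMP response genes, Nr4a1 (ENSMUSG00000023034), an immediate-early orphan nuclear receptor, had the largest elastic to viscous ratios of any of these genes in 3 of 4 numbers, leaving aside the rare Hpgd and Ptger3. It had 26.7 and 27.2 CPM in Jak2 V617F elastic libraries (J1 and J2) and 11.4 and 6.65 CPM in Jak2 V617F viscous libraries. Control W2 had 27.0 CPM in elastic and 6.66 CPM in viscous gel, and control W1 had 8.14 and 3.13 CPM. All elastic libraries except W1 stood near 27 CPM, and each number was higher in elastic gel, by 2.34-fold (J1), 4.07-fold (J2), 2.57-fold (W1) and 4.03-fold (W2). Elastic W1 lay below viscous J1, which is the only overlap between the gels.

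Averaged over genotypes, Nr4a1 was 3.28-fold higher in elastic gel, a log2 fold change of 1.71 (SE 0.44, 95% interval 0.67 to 2.76). The edgeR p was 0.00650 and the adjusted p 0.537, so the difference did not pass. DESeq2 on the same 8 libraries called it (adjusted p = 0.00828); limma-voom did not (adjusted p = 0.576). The estimate was 1.58 in Jak2 V617F (SE 0.61, edgeR p 0.0385, adjusted p = 1.00) and 1.85 in control cells (SE 0.62, edgeR p 0.0226, adjusted p = 0.985). Leaving out control elastic W2 brought the control estimate to 0.74 (adjusted p = 0.695). The difference between the genotypes' estimates on all libraries was −0.27, with a wide interval of −2.31 to 1.77. Without both W1 libraries the edgeR estimate over both genotypes was 1.80, with no replicates left in control cells. Nr4a1 lies at chr15:101253902-101274795 on GRCm38.

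**Figure D3:**
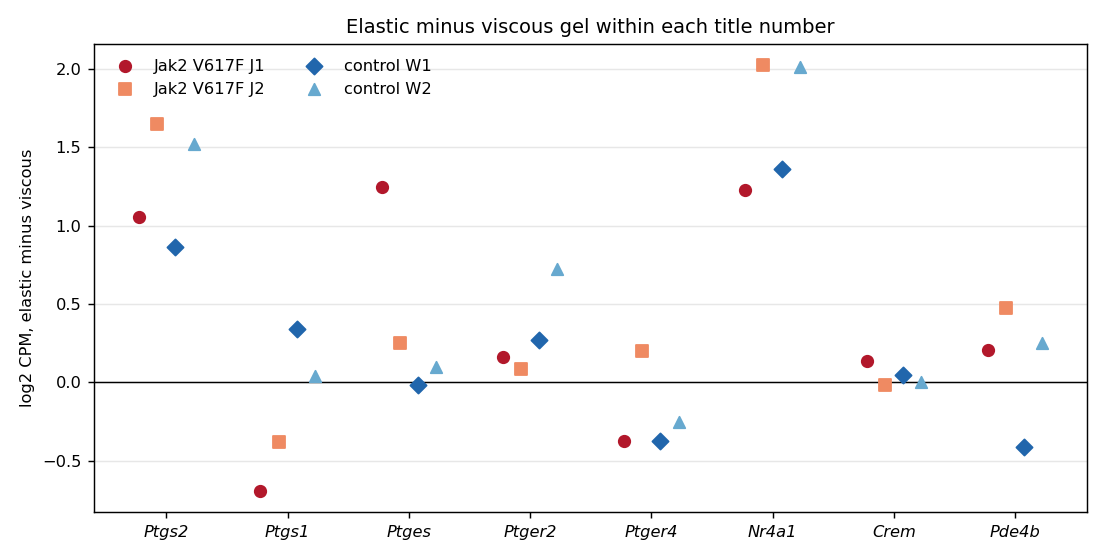
Elastic minus viscous gel in log2 CPM (prior count of 2) for 8 genes, 1 point per title number, Jak2 V617F before control. Ptgs2, Ptger2 and Nr4a1 are above 0 in all 4 numbers, while Crem stays within 0.14 log2 units of 0.

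Crem (ENSMUSG00000063889), which encodes cAMP-responsive repressors and activators, showed the smallest matrix effect of the 9 genes. Its estimate was 0.041 log2 units (95% interval −0.17 to 0.25, adjusted p = 0.983), which leaves little room for a matrix difference of the size seen for Nr4a1. Its values were 42.2 and 39.7 CPM in Jak2 V617F elastic, 38.4 and 40.2 CPM in Jak2 V617F viscous, 31.8 and 35.5 CPM in control elastic, and 30.8 and 35.4 CPM in control viscous libraries (J1, J2 and W1, W2). The RefSeq table lists a lncRNA whose span overlaps that of Crem, so the same limit holds here as well.

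Pde4b (ENSMUSG00000028525) had 406.6 and 407.7 CPM in Jak2 V617F elastic (J1 and J2) and 352.8 and 293.2 CPM in Jak2 V617F viscous libraries. Control W2 had 426.3 CPM in elastic and 358.3 CPM in viscous gel; control W1 had 139.7 and 186.1 CPM, below every other library. In the 6 libraries other than W1, elastic values lay above viscous ones, by 1.15-fold to 1.39-fold, while W1 went the other way (0.751). The estimate over all 8 libraries was 0.20 (95% interval −0.69 to 1.08, adjusted p = 0.982). The Pde4b span overlaps those of 5 other RefSeq genes, 3 lncRNAs and 2 pseudogenes.

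Counted together, 0 of the 9 genes tested passed the edgeR threshold for elastic against viscous gel over both genotypes, as did 0% of all 14785 IDs. On the same libraries and without title number in the model, limma-voom also called 0 of 9 and DESeq2 1 of 9 (Nr4a1). At an unadjusted p under 0.05 there were 2 of 9 (Ptger2 and Nr4a1), against 6.28% of all IDs. Elastic was above viscous in each of the 4 numbers for 3 of 9 (Ptgs2, Ptger2 and Nr4a1), against 10.7% of all IDs. None of the 9 was lower in each number, against 10.8% of all IDs. Without W1, the 3 elastic libraries lay above the 3 viscous ones for 4 of 9 (these 3 and Pde4b), against 7.60% of all IDs, and below them for 0 of 9, against 7.05%. The median log2 fold change was 0.29 over the 9 genes and −0.0043 over all IDs tested. Because the genes were chosen with earlier results of these data known, the shares of all IDs serve as description only.

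Within single genotypes the edgeR counts were also 0, as were those of limma-voom and DESeq2 on all libraries without title number in the model. In Jak2 V617F cells 0 of 9 passed (0% of all IDs), and 1 of 9 (Nr4a1) had an unadjusted p under 0.05, against 3.08% of all IDs. In control cells 0 of 9 passed (0%), and 2 of 9 (Ptger2 and Nr4a1) had an unadjusted p under 0.05, against 4.85%. For the difference between the matrix effects 0 of 9 passed (0%), and 0 of 9 had an unadjusted p under 0.05, against 1.72%. The intervals of this difference were wide for the W1-dependent genes, for Ptgs2 −4.51 to 4.18 log2 units. The gap in level between W1 and W2 counts as spread here, so this test alone cannot show whether responses were equal. With title number as a block, the Ptgs2 estimate was 1.35 in Jak2 V617F (edgeR p 0.00324, adjusted p = 0.426). In control cells it was 1.19 (edgeR p 0.00567, adjusted p = 0.346). DESeq2 with this block, chosen after seeing the data, called Ptgs2 and Nr4a1 in Jak2 V617F (0.933% of all IDs) and in control cells (1.16%).

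The genotype comparison asks whether mutant and control monocytes differ in these genes. Over both gels, on counts summed per title number (2 sums against 2), 0 of 9 passed the edgeR test (0% of 15239 IDs) and 0 of 9 had an unadjusted p under 0.05 (5.22% of IDs). Within elastic gel the counts were 0 of 9 (0%) and 0 of 9 (4.42%), and within viscous gel 0 of 9 (0%) and 0 of 9 (7.31%). limma-voom and DESeq2 on all libraries also called 0 of 9 in each of these comparisons. The median log2 fold change over both gels was 0.27 for the 9 genes and −0.0049 for all IDs.

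Crem was the only gene of the 9 whose 4 Jak2 V617F libraries (38.4 to 42.2 CPM) all lay above the 4 control libraries (30.8 to 35.5 CPM), a separation seen in 6.89% of all IDs in either direction. The log2 fold change was 0.27 (SE 0.12, 95% interval −0.040 to 0.59, edgeR p 0.0734, adjusted p = 0.792), or 1.21-fold higher in Jak2 V617F cells. For Ptgs2, Ptgs1, Ptges, Ptger2, Ptger4 and Pde4b the control values spanned the mutant ones. Ptgs2 ranged from 1321 to 4616 CPM in Jak2 V617F and from 190.3 to 5030 CPM in control libraries. Pde4b ranged from 293.2 to 407.7 CPM in Jak2 V617F and from 139.7 to 426.3 CPM in control libraries. The ranges of Nr4a1 overlapped, at 6.65 to 27.2 CPM in Jak2 V617F and 3.13 to 27.0 CPM in control libraries.

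What the genotype comparison gave depended on which control number was read. With W1 alone standing for control, edgeR called 6 of 9 genes, against 16.6% of all IDs: Ptgs2, Ptges, Nr4a1 and Pde4b higher and Ptgs1 and Ptger4 lower in Jak2 V617F. With W2 alone it called 0 of 9 (0% of IDs). Against W2 Ptgs1 was higher in Jak2 V617F (log2 fold change 0.82, SE 0.18, edgeR p 0.00646, adjusted p = 0.274), while against both numbers it was −0.85 (SE 0.80, 95% interval −3.02 to 1.32, adjusted p = 0.840). Likewise Ptges was −0.76 against W2 (SE 0.13, adjusted p = 0.218) and 2.82 against W1 (SE 0.14, adjusted p = 0.00153). With 1 control sum, the spread comes from the 2 Jak2 V617F sums only.

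**Figure D4:**
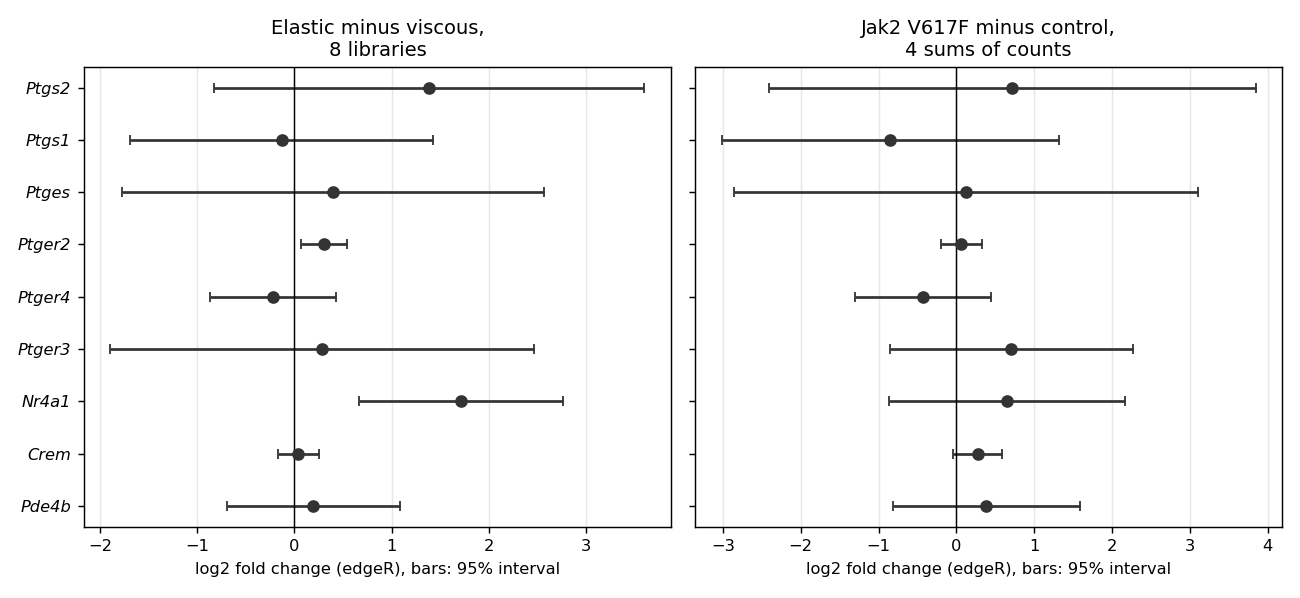
edgeR log2 fold changes with 95% intervals for the 9 genes tested, for elastic minus viscous gel (left) and Jak2 V617F minus control on summed counts (right). Only the intervals of Ptger2 and Nr4a1 in the left panel exclude 0, before adjustment over all IDs; those of Ptgs2, Ptgs1 and Ptges are among the widest.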

How the data were processed

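The authors deposited raw counts (whole numbers, unscaled) of 17640 Ensembl IDs in 8 libraries, once as a joint table and once per library with identical values. Salmon, DESeq2 and the GRCm38 build are named in the submitters' processing notes; the sources used here give no versions, filters or strand setting. No row summed to less than 10. The 10 genes and all comparisons were chosen with earlier results of these data known. Their symbols came with the list of IDs: the RefSeq gene table (GRCm38.p6, 49997 genes) holds 0 Ensembl IDs, and supplied coordinates by symbol. Pathway and cell marker lists fixed as symbols could not be matched to IDs and were not tested, and no sequences are shown.

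IDs were kept with filterByExpr (14785; 15239 for summed counts), scaled by TMM and tested with edgeR 4.0.16 quasi-likelihood in R 4.3.3 (limma 3.58.1, DESeq2 1.42.0 as alternatives), two-sided, Benjamini-Hochberg over all IDs, threshold 0.05. A model of 4 group means was fitted to all 8 libraries. SE and 95% intervals derive from the F statistic. The rule for printing fold changes took genes with an unadjusted p under 0.05 or without overlap; other printed estimates, Ptgs2 included, were added after seeing the values. Every pair of replicates differed by more than sampling noise, with a chi-square between 19.1 and 262.4 per degree of freedom. Alternatives were another scaling, filter or test, each library or both W1 libraries left out, title number as a block term, fits of 4 libraries, and averaging over 8. The edgeR fit for matrix over both genotypes was also run on simulated independent libraries. These held no deviations shared by same-numbered libraries, so that structure was not tested. Figures used matplotlib 3.10.9 in Python 3.11.15.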

Additional observations from a re-analysis of the deposited data

Results flagged for a closer look

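Among 40 sets of 4 libraries (each of the 10 genes in the elastic, viscous, Jak2 V617F and control libraries), 4 held 1 library far from the other 3 by Dixon's criterion. Its rate of about 1 of 20 sets by chance holds only for independent values from 1 normal distribution. These sets mix groups and share libraries, so that rate does not apply to them. The library set apart was from W1 in all 4. In elastic gel, control W1 had 240.3 CPM of Ptgs1, against 40.1 to 59.0 CPM in the other 3. Also in elastic gel it had 8.14 CPM of Nr4a1, against 26.7 to 27.2 CPM, and 139.7 CPM of Pde4b, against 406.6 to 426.3 CPM. Among control libraries, viscous W1 had 0 CPM of Ptger3, against 0.323 to 0.374 CPM in the other 3; these values stand for counts of 0, against 10, 12 and 11.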

How the results depend on the processing

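Of 123 alternative counts of genes called, 113 stayed at 0; without a low-count filter Hpgd was tested too, and with the stricter one Ptger3 was not. DESeq2 called 1 for matrix over both genotypes (Nr4a1). Over all IDs DESeq2 called 134 for matrix over both genotypes, 35 in Jak2 V617F and 32 in control cells, 2 for the difference of the matrix effects, and 106 for genotype over both gels, 41 in elastic and 61 in viscous gel, where edgeR and limma-voom called 0. Combinations chosen after seeing the data also moved some counts from 0. One was DESeq2 without both W1 libraries, with matrix estimates over both genotypes of 1.42 for Ptgs2 and 1.81 for Nr4a1. That fit left control cells without replicates, so its spread came from the Jak2 V617F libraries only and its calls are not given. The genotype count over both gels was 0 to 6 with 1 sum left out; only the fit without W2 gave 6. With 1 library left out, the Ptgs2 matrix estimate ranged from −0.090 to 2.57 over both genotypes and from −1.49 to 3.83 in control cells, negative only without elastic W2. Ptgs1 between genotypes ranged from −1.59 to 0.82, positive only without W1. Of the 10 effects on Ptgs2, Ptgs1, Ptger2, Nr4a1 and Crem refitted here, the other 7 kept their sign. With 1 library left out, Nr4a1 lay between 1.16 and 2.04 over both genotypes and between 0.74 and 2.496 in control cells. Ptges between genotypes, outside these 10, also changed sign (−0.76 without W1 and 2.82 without W2). Another scaling moved the median of all IDs by at most 0.0223 log2 units.

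Same-numbered libraries deviated from their group means with a correlation of −0.089 across IDs in Jak2 V617F and 0.53 in control cells. In control cells same-numbered libraries thus shared part of their deviations, which the main matrix tests count as spread between libraries. Those tests did not take the number as a pairing, because the labels leave out its meaning. With the number as a fixed block, edgeR called 0 of 9 (5 of all IDs over both genotypes). Ptgs2 was then 1.27 (SE 0.19, edgeR p 0.000814, adjusted p = 0.113) and Nr4a1 1.67 (SE 0.18, edgeR p 0.000159, adjusted p = 0.0803). With the block DESeq2 called 2 (Ptgs2 and Nr4a1) over both genotypes (2.67% of all 14785 IDs), 2 in Jak2 V617F (0.933%) and 2 in control cells (1.16%). This combination was chosen after seeing the data, as was the block without W1. In edgeR the block without W1 put Nr4a1 at 1.82 over both genotypes. It left control cells without replicates, so its spread came from the Jak2 V617F libraries only. Depth limits Hpgd and adds counting error to Ptger3; the other 8 genes are limited by the spread between libraries.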
